A study of Macaca mulatta with 304 samples.

Results

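The 10 genes described here carry out or limit cytokine signalling through STAT transcription factors: SOCS1, SOCS2, SOCS3, CISH, STAT3, STAT5A, STAT5B, PIM1, BCL3 and IL6R. They were chosen by symbol, made up 10 of the 21070 rows of the count table, and all 10 were among the 13751 genes that passed the filter on low counts. Whole blood came from 28 adult rhesus macaques, 14 males and 14 females, of the Chinese sub-strain, each irradiated once over the thorax with 9.8 Gy (12 animals, the lower dose) or 10.7 Gy (16 animals, the higher dose). Each animal was its own control at Day -2, before irradiation, and 24 of the 28 animals had a control sample, 12 in each dose group. Draws followed on up to 15 scheduled days between Day 3 and Day 270, and 8 animals had 1 unscheduled final draw. No unirradiated animal was followed over time, so time, handling, the analgesics given in the first weeks and irradiation cannot be told apart. Animals with rapid breathing received dexamethasone, a glucocorticoid, and which animals these were was not given in the sources used here. The number of animals fell with time, and 5 of the 6 animals drawn on Day 270 came from the lower dose group.

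Cytokines such as interleukin 6, erythropoietin and interleukin 2 bind receptors that carry Janus kinases. The kinases phosphorylate STAT3, STAT5A and STAT5B, which enter the nucleus and switch on target genes. CISH and the SOCS genes are among these targets, and their proteins bind the receptor or the kinase and end the signal, which makes a negative feedback loop. PIM1, a survival kinase, and BCL3, a partner of NF-kB, are further targets, and IL6R is the chain that binds interleukin 6. In blood, STAT5 serves red cell precursors and lymphocytes, whereas STAT3 serves neutrophil production and the acute inflammatory response.

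Total counts per sample ranged from 2840219 to 23638161 with a median of 8227563. Library names carry a number whose meaning was not stated. It fell in a lower range in 20 of 24 control samples and in 100 early samples (Day 3 to 21), in a higher range in 34 samples, and was 0 in 150 samples, which included 76 of 95 medium samples (after Day 21 to Day 90) and 46 of 53 late samples (after Day 90). The number thus moved with time. Marker lists covered neutrophils, monocytes, T cells, B cells, NK cells, erythroid cells and platelets. Each tested gene on them had a median over all samples of at least 0.5 CPM (counts scaled to the library total). Medians of single marker genes were not taken by window. In whole blood, fewer cells of a type and less RNA per cell cannot be told apart.

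The genes were located on the Mmul_10 build. STAT5B (chr16:53322391-53413152, minus strand), STAT5A (chr16:53413223-53437928, plus strand) and STAT3 (chr16:53439266-53524562, minus strand) are neighbours, and 70 bases separate the start sites of STAT5B and STAT5A, which point away from each other. STAT5A and STAT5B are near-identical paralogs, so the division of reads between them is uncertain. CISH lies at chr2:106735078-106740055 (minus strand) and shares 457 exonic bases with the lncRNA gene LOC114676353 on the other strand. Whether strand was used in counting was not stated, so reads of CISH and this lncRNA may be mixed. SOCS3 lies at chr16:74717689-74719374 (minus strand), SOCS2 at chr11:93367615-93374511 (plus strand), SOCS1 at chr20:11218216-11222015 (minus strand), BCL3 at chr19:44787229-44799071 (plus strand) and IL6R at chr1:96570516-96633105 (minus strand). PIM1 (chr4:132270361-132275220, minus strand) has a gene model that begins at its start codon and carries a note of a discrepancy between transcript and genome.

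STAT proteins recognise the palindrome TTCNNNGAA, which reads alike on both strands. It was searched in the 300 bases before the annotated start of each member, and 2 of 10 windows, that of CISH among them, held it. Of all 20782 protein-coding windows of that length 7.24% held it. The CISH window (chr2:106740056-106740355, minus strand) had 2 matches that began at -228 and -211 from the start. It is shown because CISH changed most in the early samples. It reads 5' to 3' on the strand of the gene, with the matches in capitals, and a match is a description of the letters only.
CISH: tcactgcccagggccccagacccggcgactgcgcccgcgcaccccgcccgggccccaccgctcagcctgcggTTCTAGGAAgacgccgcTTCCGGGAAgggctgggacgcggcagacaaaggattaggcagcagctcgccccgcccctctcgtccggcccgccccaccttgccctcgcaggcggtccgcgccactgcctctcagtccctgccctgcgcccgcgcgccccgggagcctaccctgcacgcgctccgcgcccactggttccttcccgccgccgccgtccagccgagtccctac

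Before irradiation the STAT genes and IL6R had higher medians than the feedback inhibitors. As a level per kilobase of exon, the median of 24 controls was 92.03 CPM per kilobase for IL6R (53.7 to 235.1), 81.03 for STAT5B and 67.8 for STAT3. IL6R was above STAT5B in 17 of 24 animals and STAT5B above STAT3 in 23 of 24. BCL3 (44.98) and STAT5A (40.0) did not separate, with BCL3 higher in 13 of 24 animals. SOCS3 followed with 19.4 CPM per kilobase, CISH with 14.4, SOCS1 with 6.15 and SOCS2 with 2.02. SOCS3 was above CISH in 17 of 24 animals, and CISH was above SOCS1 and SOCS1 above SOCS2 in all 24. PIM1 had the lowest median, 1.14, and a range from 0.345 to 22.1.

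CISH had the largest early rise of the 10 genes. Its protein is a STAT5-induced inhibitor that damps erythropoietin and interleukin 2 signals. In the fit of Day 3 its controls ranged from 30.1 to 82.9 CPM with a median of 43.7, and Day 3 samples from 60.6 to 161.5 CPM with a median of 92.5. The ranges overlapped, but CISH was above the animal's own control in 24 of 24 animals. The change was 2.07-fold (log2 1.05, SE 0.064, adjusted p = 6.71e-14, edgeR quasi-likelihood test with the animal as block). CISH was the 1 member of 10 called on Day 3, when 11.5% of all genes were called. For a call, the p adjusted over all genes (Benjamini-Hochberg) had to reach 0.05 and the change 1.5-fold. On Day 6 CISH was 1.55-fold above control (in 21 of 24 animals, edgeR adjusted p = 1.36e-05). On Day 9, 15, 21 and 30 it was 1.433-fold to 1.495-fold above control, short of the fold. In the 4 animals whose control and Day 30 libraries share a range of library numbers, its Day 30 change was log2 -0.01 (adjusted p = 0.976 by edgeR). All 4 belong to the higher dose group. On Day 40 it was 1.11-fold above control with an adjusted p of 0.202.

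SOCS2, which limits growth hormone and other STAT5 signals, rose with a flatter course. On Day 21 its controls ranged from 5.77 to 12.8 CPM with a median of 8.85, and the Day 21 samples from 8.36 to 24.1 CPM with a median of 12.5. The ranges overlapped, and SOCS2 was above the animal's own control in 24 of 24 animals (1.54-fold, log2 0.63, SE 0.079, adjusted p = 2.14e-07 by edgeR). It was also called on Day 6 (1.58-fold, adjusted p = 1.24e-05 by edgeR) and Day 9 (1.52-fold, adjusted p = 4.57e-06). On Day 3 SOCS2 was higher by log2 0.57 (adjusted p = 5.03e-07 by edgeR), just short of the fold. TMM scaling (log2 0.61) and DESeq2 (log2 0.62) called it on that day. SOCS3 was called on Day 6 as well (1.54-fold, adjusted p = 0.00394), with 1 sample at 153.9 CPM against a median of 31.3. The calls made up 11.5% of all genes on Day 6, then 7.58% (Day 9) and 10.4% (Day 21). The share of higher calls on Day 6 was 52.4%, and 62.7% under TMM scaling. On Day 15 no member was called, beside 6.01% of all genes.

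**Figure D1:**
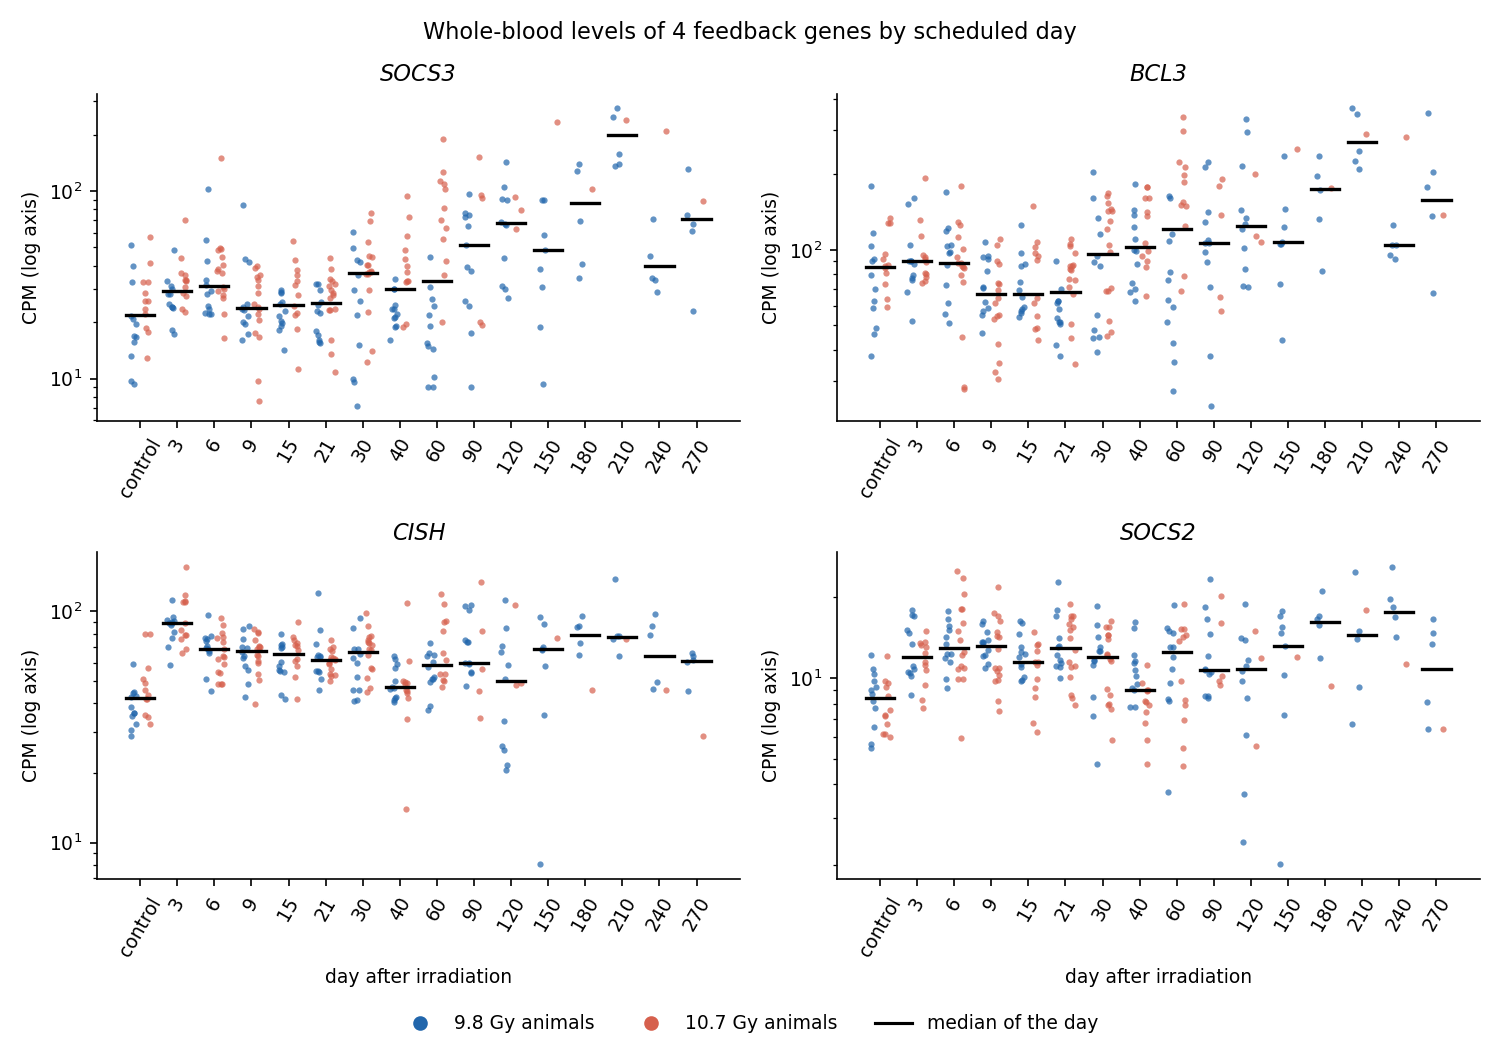
Level of SOCS3, BCL3, CISH and SOCS2 in every scheduled sample by day, in CPM on a log axis, with controls at the left. Points are animals coloured by dose group and black lines are medians, and the highest median of SOCS3, 198.3 CPM, is on Day 210.

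Summed per animal over Day 3 to 21, CISH went from a control median of 44.01 CPM (30.3 to 83.5) to 75.5 CPM (48.9 to 105.8) and was higher in 23 of 24 animals. Its change was 1.64-fold (log2 0.71, SE 0.069, adjusted p = 1.82e-09 by edgeR). SOCS2 went from 8.79 CPM (5.73 to 12.7) to 13.3 CPM (7.50 to 16.6), was higher in 24 of 24 animals and changed 1.504-fold (log2 0.59, SE 0.069, adjusted p = 5.27e-08 by edgeR). These were the 2 members of 10 called in the early window, beside 7.53% of all genes. SOCS2 sat at the edge of the fold and fell below it with no filter on low counts (log2 0.58), without the animal as block (log2 0.58) and with the deposited log2 values (log2 0.57). SOCS3 was 1.27-fold above control (adjusted p = 0.0126), below the fold. STAT3 (log2 -0.22), STAT5A (log2 -0.17) and STAT5B (log2 -0.28) had adjusted p of 0.0179, 0.0167 and 0.0102 by edgeR, each lower in 16 of 24 animals, and also missed the fold. SOCS1, PIM1, BCL3 and IL6R did not pass the test, with adjusted p from 0.194 to 0.797. In animals whose control and early samples share a range of library numbers, SOCS2 (log2 0.59) and CISH (log2 0.72) were called again. On Day 3, 6, 9 and 15 all 24 paired animals share a range, so this fit repeats most of the main one. The median log2 change was 0.05 over the members and -0.02 over all genes.

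Of 75 further tested genes of the pathway (ligands, receptors, kinases, other STATs, inhibitors and targets), 5 were higher and 1 lower in the early window. This share was close to that of all genes called in the same window, given above. BCL2L1, a survival gene and STAT5 target, rose 2.715-fold (adjusted p = 1.12e-10 by edgeR) and EPOR, the erythropoietin receptor, 2.46-fold (adjusted p = 2.67e-10), both in 24 of 24 animals. LEPR, the leptin receptor, rose 2.24-fold, and PRLR, the prolactin receptor, fell to 0.552 of control. None of the 17 other inhibitors tested was called. In this window 8 of 8 erythroid markers were higher (median log2 change 1.63) and 8 of 8 B cell markers lower (median -1.06). The summed erythroid markers ranged from 1662 to 11380 CPM in controls and from 3567 to 82260 CPM in early samples. Their part in the change of the members was not tested.

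STAT3, STAT5A, STAT5B and IL6R had their lowest median of all scheduled days on Day 21. STAT5B went from a control median of 462.8 CPM (326.1 to 1303) to 311.7 CPM (236.9 to 404.3) and was lower in 23 of 24 animals. The fitted level was 0.622 of control (log2 -0.69, SE 0.086, adjusted p = 1.74e-07 by edgeR). STAT3 went from 360.9 CPM (240.1 to 911.9) to 263.4 CPM (199.01 to 320.6), lower in 21 of 24 animals, at 0.662 of control (log2 -0.59, SE 0.088, adjusted p = 2.49e-06 by edgeR). The ranges overlapped for both genes. STAT3 lost its call under a stricter count filter (log2 -0.58). STAT5A was at 0.768 of control and IL6R at 0.702, with adjusted p of 1.58e-05 and 1.49e-05, and neither reached the fold. On that day 5 of 11 neutrophil markers were lower (median log2 change -0.47), and their part was not tested.

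**Figure D2:**
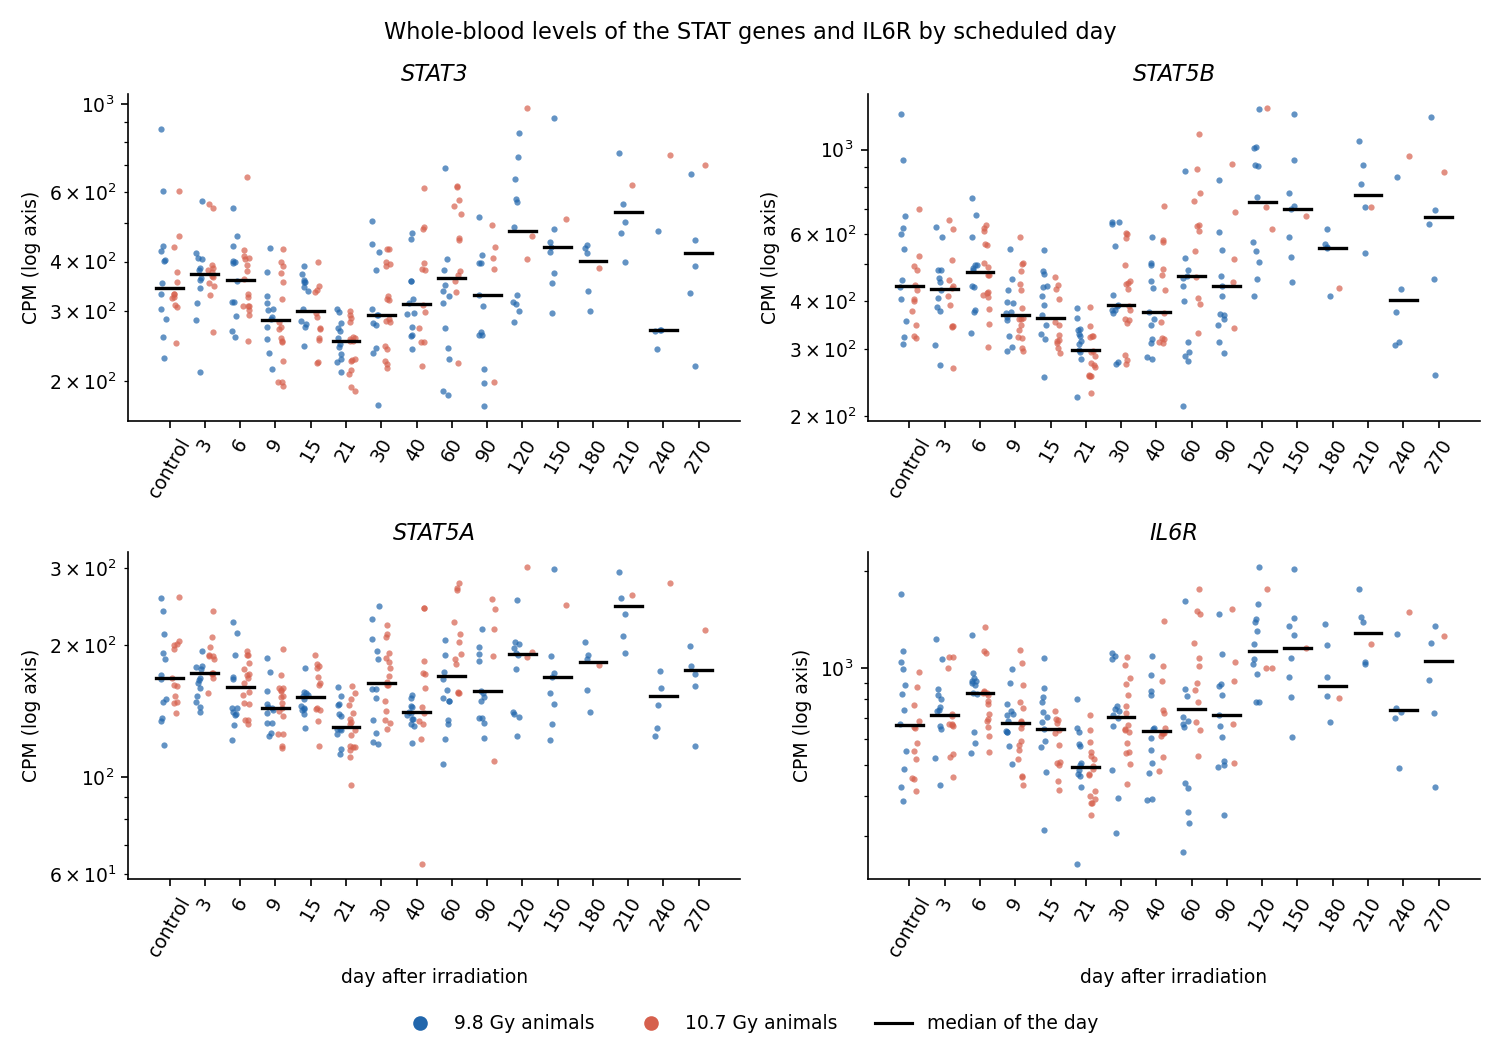
Level of STAT3, STAT5B, STAT5A and IL6R in every scheduled sample by day, in CPM on a log axis, with controls at the left. Points are animals coloured by dose group and black lines are medians, which are lowest on Day 21 in all 4 genes (252.6 CPM for STAT3 and 297.5 CPM for STAT5B).

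In the medium window SOCS3, the main inhibitor of interleukin 6 and G-CSF signals, was the 1 member of 10 called, beside 5.75% of all genes. It went from a control median of 22.9 CPM (9.82 to 59.5) to 42.3 CPM (13.4 to 94.3), was higher in 21 of 24 animals and changed 1.69-fold (log2 0.76, SE 0.11, adjusted p = 4.12e-06 by edgeR). With the deposited log2 values the change was log2 0.58, below the fold, and so it was (log2 0.58, adjusted p = 0.0481) in the 4 animals whose control and medium samples share a range of library numbers. CISH (1.41-fold), BCL3 (1.33-fold), SOCS2 (1.31-fold) and SOCS1 (1.26-fold) had adjusted p of at most 0.013 and missed the fold. In the same 4 animals these changes were log2 0.04 for CISH (adjusted p = 0.908 by edgeR), 0.24 for BCL3 (0.323), 0.42 for SOCS2 (0.209) and 0.45 for SOCS1 (0.219). These 4 animals (B2003, B2005, B2503 and B2504) all belong to the higher dose group, and B2005 and B2503 had no draw after Day 40. Library number, dose group and days thus changed together in this subset. By day, no member was called on Day 30 (5.9% of genes) or Day 40 (6.92%). SOCS3 was called on Day 60 (1.58-fold, 4.23% of genes), and SOCS3 (2.07-fold) and CISH (1.74-fold) on Day 90 (7.06%). TMM scaling and DESeq2 also called SOCS1 and CISH on Day 60 and SOCS2 on Day 90. Under DESeq2 the share of higher calls went from 58.78% to 72.2% on Day 40 and from 54.56% to 67.6% on Day 60. Of the 75 further pathway genes 8 were higher and 1 lower in the medium window, beside 5.75% of all genes called. IL15, a lymphocyte growth factor, rose 1.775-fold in 24 of 24 animals, IL5RA, the interleukin 5 receptor of eosinophils, 2.005-fold, and CEBPB, a factor of neutrophil production, 1.78-fold. IL3RA, the interleukin 3 receptor, fell to 0.6105 of control. Over the same samples 5 of 11 neutrophil markers were higher (median log2 change 0.54), and their part was not tested.

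On Day 60 SOCS3, SOCS1, BCL3 and IL6R were higher at the higher dose. SOCS3 ranged from 9.27 to 45.998 CPM with a median of 17.8 in the 12 lower dose animals, and from 20.5 to 195.3 CPM with a median of 77.4 in the 12 higher dose animals. The ranges overlapped, and 9 of 12 higher dose animals lay above the highest lower dose animal. Against their own control, 3 of 12 lower dose animals and 9 of 9 higher dose animals were higher. The tests of dose on this and other days except Day 30 were chosen after levels by dose had been seen. At the higher dose SOCS3 was 4.18-fold higher (log2 2.06, SE 0.31, adjusted p = 0.000473 by edgeR), SOCS1, an inhibitor of interferon signals, 2.30-fold (adjusted p = 0.00423), BCL3 2.21-fold (adjusted p = 0.0058) and IL6R 1.599-fold (adjusted p = 0.0408). These were 4 of 10 members, beside 18% of all genes, of which 51.4% were higher at the higher dose and 67.2% by DESeq2. The call of IL6R was lost with no filter on low counts, in samples of library number 0 alone (log2 0.58, adjusted p = 0.136) and without animal B2004 (log2 0.67, adjusted p = 0.0586). STAT5A, STAT5B and CISH had adjusted p of 0.0144, 0.0394 and 0.0406 and missed the fold. TMM scaling (log2 0.66) and DESeq2 (log2 0.68) called STAT5B. STAT3, SOCS2 and PIM1 did not pass the test.

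BCL3 on Day 60 ranged from 28.1 to 168.2 CPM at the lower dose (median 71.5) and from 70.8 to 347.3 CPM at the higher dose (median 175.2), with 6 of 12 higher dose animals above every lower dose animal. SOCS1 ranged from 16.7 to 29.1 CPM (median 19.8) and from 17.1 to 189.7 CPM (median 35.8), and its highest sample was animal B2004. Without B2004 the difference of SOCS1 was log2 0.84 (adjusted p = 0.00632 by edgeR). All 12 higher dose samples and 8 of 12 lower dose samples carried library number 0. Among these, the differences were log2 2.09 for SOCS3 (adjusted p = 0.00721), 1.31 for SOCS1 (adjusted p = 0.0136) and 1.21 for BCL3 (adjusted p = 0.0215). As a change from the animals' own controls (12 lower and 9 higher dose animals), the dose difference was called for 7 of 10 members beside 23.1% of all genes, of which 45.4% were higher, against 60.2% by DESeq2. It was log2 1.82 for SOCS3 (SE 0.26, adjusted p = 3.31e-05 by edgeR), 1.11 for BCL3, 1.09 for IL6R, 0.96 for PIM1 and STAT5B, 0.93 for SOCS1 and 0.70 for STAT3. Without the animal as block, STAT3 (adjusted p = 0.0873) and PIM1 (adjusted p = 0.513) lost this call and 5 members kept it. DESeq2 called STAT5A as well (log2 0.59). Of the 12 higher dose animals drawn on Day 60, 5 had no later draw. All 11 neutrophil markers were higher at the higher dose (median log2 difference 1.4956), with summed medians of 7547 against 2373 CPM and ranges of 3034 to 18490 and 868.5 to 7437 CPM. Of 9 glucocorticoid-responsive genes 5 were higher (median 1.63), and 6 of 8 monocyte markers were (summed medians of 2907 against 1373 CPM). Of 8 T cell markers 3 were lower (731.3 against 1232 CPM), and no B cell marker was called (552.8 against 903.4 CPM). The part of these lists was not tested.

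On the other days no member passed the test of dose. The test called 0% of genes on Day 3, 6, 9, 15, 30, 40 and 90, where 780 to 2241 genes had an unadjusted p below 0.05, and 0.153% on Day 21. On Day 21 every lower dose sample, and no higher dose sample, lay in the lower range of library numbers. Dose and library number cannot be told apart on that day. DESeq2 called no gene on Day 3, 9 and 30 (0 each) and between 2 (Day 6) and 76 (Day 40) genes otherwise. On Day 40 SOCS3 was 1.88-fold higher at the higher dose (log2 0.91, SE 0.21, adjusted p = 0.18 by edgeR) and was the member that DESeq2 called. On Day 30, with all 28 animals, its difference was log2 0.52 (SE 0.27, adjusted p = 0.523). The dose difference in the early change of CISH was log2 -0.24 (SE 0.13, adjusted p = 0.86), with 0% of genes called and 761 at an unadjusted p below 0.05. No member passed the test of a sex difference in the early change (0% of genes called, 0.894% at an unadjusted p below 0.05), and for CISH the difference was log2 0.18 (SE 0.14). Among the 16 higher dose animals, no member passed the test between Day 30 levels of the 4 drawn after Day 90, all female, and of the 12 others (0% of genes, 211 at an unadjusted p below 0.05). The males thus give no comparison of follow-up within a sex. DESeq2 called 0 genes in these 3 comparisons.

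The broadest changes of the members came after Day 90. Late samples include unscheduled final draws, and B1504 (Day 102) and B2504 (Day 94) had no other late draw. Of the 14 animals with a control and late samples, only B2502 and B2504 were of the higher dose group. SOCS3 went from a control median of 19.9 CPM (9.235 to 55.99) to a late median of 82.7 CPM (39.5 to 158.5) and was higher in 14 of 14 animals. The change was 3.80-fold (log2 1.93, SE 0.22, adjusted p = 4.2e-06 by edgeR). BCL3 went from 75.1 CPM (37.3 to 176.7) to 168.1 CPM (70.6 to 245.5), 1.97-fold (adjusted p = 6.46e-05), and was higher in 13 of 14 animals. SOCS1 rose 1.66-fold (adjusted p = 0.00168), IL6R 1.59-fold (adjusted p = 0.00653) and CISH 1.54-fold (adjusted p = 0.0062), each higher in 12 of 14 animals. These were 5 of 10 members, beside 32.5% of all genes, of which 42.96% were higher and 57.7% by DESeq2. DESeq2's scaling moved the median change of all genes by log2 0.12, from -0.13, whereas the median of the members was 0.57. The call of CISH was lost without animal B1002 or B1504 and with the deposited log2 values (log2 0.55), and that of IL6R without B1006 or B1506 and without the block (log2 0.58). Leaving out 1 animal at a time gave log2 0.53 to 0.75 for CISH and 0.58 to 0.76 for IL6R. STAT5B was 1.44-fold higher (adjusted p = 0.0211), short of the fold, and was called without B1501 or B1504, by DESeq2 (log2 0.64), with TMM scaling, with no filter and with the deposited log2 values. STAT3, STAT5A, SOCS2 and PIM1 did not pass the test. SOCS3 was above the highest control in 36 of 53 late samples, against 4 early ones.

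**Figure D3:**
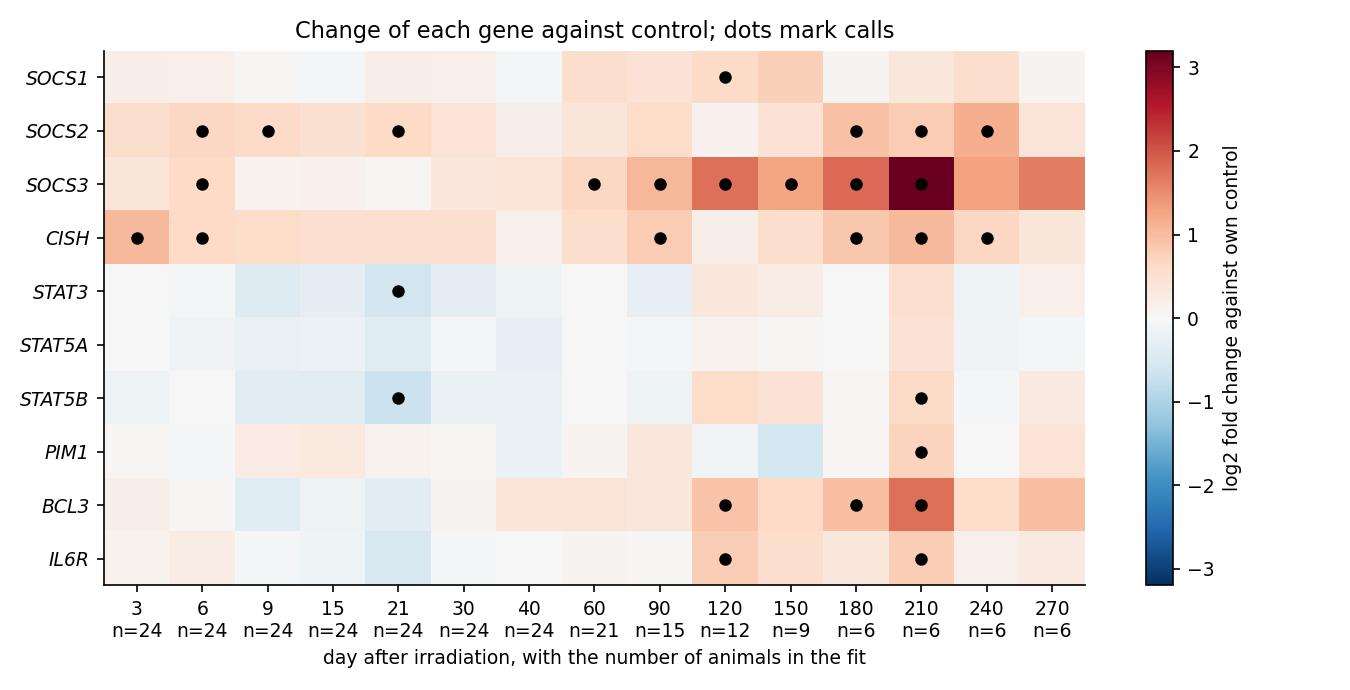
Fitted log2 change of each member (rows) against the animals' own controls on each scheduled day (columns), red above and blue below control. Black dots mark calls (adjusted p at most 0.05 and at least 1.5-fold) and n is the number of animals, and the largest change is that of SOCS3 on Day 210, log2 3.16.

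By day, SOCS3 was called on Day 120 (3.39-fold, higher in 12 of 12 animals), Day 150 (2.40-fold), Day 180 (3.503-fold, 6 of 6) and Day 210. In the 6 animals of Day 210 it went from 15.3 to 38.9 CPM in controls to 133.4 to 270.6 CPM, so the groups did not overlap. The change was 8.96-fold (log2 3.16, SE 0.25, adjusted p = 3.9e-05 by edgeR). BCL3 went from 47.9 to 115.1 CPM in controls to 206.8 to 359.7 CPM, again with no overlap (3.41-fold, adjusted p = 6.76e-05 by edgeR). CISH (2.05-fold), SOCS2 (1.77-fold), IL6R (1.73-fold), PIM1 (1.63-fold) and STAT5B (1.54-fold) were called too, 7 of 10 members beside 29.8% of all genes. The call of PIM1 was lost without the block. STAT3 was called as well with TMM scaling (log2 0.61), by DESeq2 (log2 0.64) and with no filter (log2 0.59). Day 120 brought calls of SOCS3, BCL3, IL6R and SOCS1 beside 31.8% of genes, of which 39.95% were higher and 55.5% by DESeq2. SOCS1 fell below the fold with at least 10 counts in 80% of samples (log2 0.58). STAT5B was called on Day 120 with TMM scaling (log2 0.68), by DESeq2 (log2 0.72) and without the block (log2 0.59). SOCS3 alone was called on Day 150, beside 31.5% of genes. SOCS1, BCL3 and IL6R were called that day by DESeq2 (log2 0.83, 0.70 and 0.64) and with no filter, and IL6R with TMM scaling. Without the block SOCS1, CISH and BCL3 were called beside SOCS3. SOCS3, SOCS2, BCL3 and CISH were called on Day 180, beside 18.7%, of which 47.18% were higher and 58.5% by DESeq2. For Day 210 these shares were 43.14% and 57.9%. The Day 150 library of animal B1502 had the fewest reads of all, and without it SOCS2 (log2 0.67), CISH (log2 0.82) and BCL3 (log2 0.78) were called on that day as well.

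On Day 240 SOCS2 was 2.22-fold (adjusted p = 0.0125 by edgeR) and CISH 1.595-fold above control (adjusted p = 0.0446), each higher in 6 of 6 animals, beside 6.76% of all genes, of which 48.17% were higher and 58.2% by DESeq2. The call of CISH was lost with at least 10 counts in 80% of samples (adjusted p = 0.0514) and without the block (adjusted p = 0.0546). SOCS3 had a median of 39.8 CPM that day with 1 animal at 209.4, and did not pass the test (adjusted p = 0.0619). It was called that day by DESeq2 (log2 1.38, adjusted p = 0.007), with no filter (adjusted p = 0.047) and without the block (adjusted p = 0.0479). On Day 270 no member was called and 0.00727% of genes were. SOCS3 (3.09-fold) and BCL3 (1.95-fold) were higher in 6 of 6 animals with an adjusted p of 0.0751 each by edgeR, and DESeq2 called both (log2 1.77 and 1.11).

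Late samples were also compared with Day 30 of the same animals within library number 0, where 16 animals had both. SOCS3 went from a median of 33.8 CPM (6.75 to 71.7) to 74.3 CPM (37.8 to 160.2) and was higher in 16 of 16 animals, 2.85-fold (log2 1.51, SE 0.18, adjusted p = 2.28e-06 by edgeR). STAT5B went from 367.0 CPM (257.7 to 610.0) to 719.7 CPM (435.7 to 1209), 1.795-fold, and IL6R from 664.65 to 1137 CPM, 1.69-fold, each in 16 of 16 animals. BCL3 rose 1.82-fold in 14 of 16 and STAT3 1.65-fold in 15 of 16, and the adjusted p of STAT5B, STAT3, BCL3 and IL6R lay between 1e-05 and 0.000132. These were 5 of 10 members, beside 24.9% of all genes, of which 42.1% were higher and 58.3% by DESeq2. SOCS1 was 1.43-fold higher (adjusted p = 0.0187), below the fold, and DESeq2 called it (log2 0.63). CISH (log2 0.04, SE 0.14) and SOCS2 (log2 -0.15, SE 0.21) did not pass the test.

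Of the 75 further pathway genes 22 were higher and 16 lower in the late window, beside 32.5% of all genes called. Among them were 9 higher and 2 lower of 18 targets, and 10 higher and 10 lower of 27 receptors. CEBPB rose 3.74-fold in 14 of 14 animals (adjusted p = 1.77e-05 by edgeR), BCL6, a repressor and STAT target, 3.05-fold, and IFNGR1, a chain of the interferon gamma receptor, 3.02-fold. IL21R, an interleukin 21 receptor of lymphocytes, fell in 14 of 14 animals to 0.429 of control, IL3RA to 0.428 and PRLR to 0.311. All 11 neutrophil markers were higher (median log2 change 1.64), 8 of 8 B cell markers lower (-2.04), 4 of 8 T cell markers lower, and 6 of 9 glucocorticoid-responsive genes higher (1.34). The summed neutrophil markers ranged from 1058 to 10360 CPM in controls and from 1809 to 21280 CPM in late samples. The summed monocyte markers had medians of 1666 CPM in controls and 3220 CPM in late samples. On Day 210, 9 of 11 neutrophil markers were higher with a median of 1.31, beside log2 3.16 for SOCS3. Of the other members called that day, BCL3 changed by more than this median, and CISH, SOCS2, IL6R, PIM1 and STAT5B by less. The part of these lists in the change of the members was not tested.

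Over all samples, with each animal's mean removed, the members formed sets that moved together. These correlations are a description, since the samples share animals, days and blood composition. Pearson's r of log2 CPM was 0.93 for STAT5B with IL6R, 0.92 for STAT3 with STAT5B, 0.86 for SOCS3 with BCL3 and 0.59 for SOCS2 with CISH. With the summed neutrophil markers r was 0.92 for IL6R, 0.86 for STAT5B, 0.82 for STAT3 and BCL3, and 0.79 for SOCS3, but -0.11 for CISH and -0.2952 for SOCS2. CISH and SOCS2 had r of 0.48 and 0.46 with the summed T cell markers. The genes most like SOCS3 were BCL3, SBNO2 and UBTD1 (0.85 to 0.86), those most like BCL3 were ZFP36 (0.9451), SBNO2 (0.92) and SPI1 (0.90), and those most like IL6R included TNFRSF10C (0.95) and LOC715795 (0.94). STAT3 was most like ZNFX1 (0.93), IGF2R and STAT5B (0.92 each), STAT5B most like MTMR3, PACSIN2 and LIMK2 (0.95 to 0.96), and STAT5A most like BAZ2A, MVP and GATAD2A (0.87 to 0.88). CISH was most like GPR35 (0.68), LYNX1 (0.67) and FLT3LG (0.66), SOCS2 like CISH, CD3D (0.57) and ICOS (0.55), SOCS1 like PLEKHJ1 (0.65), ZNF646 (0.63) and RGS19 (0.60), and PIM1 like DND1, AMIGO3 and PLA2G6 (0.51 each).

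The 8 unscheduled final draws, from animals euthanized between scheduled days, were compared with the draw before. No member was called by edgeR, nor any gene (0%), with 248 genes at an unadjusted p below 0.05, and DESeq2 called 0. SOCS2 was lower in 6 of 8 animals (log2 -0.46, SE 0.24, adjusted p of 1) and SOCS3 in 6 of 8 (log2 -0.12, SE 0.27). CISH went from 107.7 to 22.1 CPM in animal B2004 and from 84.8 to 24.2 CPM in B1001, but from 59.8 to 105.4 CPM in B1504 and from 94.5 to 142.6 CPM in B1002. SOCS3 went from 89.7 to 233.1 CPM in B1506 and from 38.2 to 88.3 CPM in B1002. The animals thus moved both ways.

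In B1001, B2004 and B2504 the SOCS2, SOCS3, CISH and PIM1 levels were lower and those of STAT3 and STAT5B higher in the unscheduled draw. STAT5B went from 752.3 to 1236 CPM in B1001, from 633.8 to 997.7 CPM in B2004 and from 518.0 to 863.3 CPM in B2504. In the same animals the summed glucocorticoid-responsive genes went from 3406 to 9518, from 5407 to 10560 and from 1804 to 5462 CPM. The summed T cell markers of these animals went from 886.6 to 567.5, from 1060 to 620.6 and from 824.9 to 487.5 CPM. The summed neutrophil markers went from 10720 to 11100, from 8905 to 11390 and from 5281 to 9733 CPM. In B1506 the glucocorticoid-responsive genes went from 8344 to 2383 CPM and STAT5B from 1240 to 752.4 CPM. The T cell markers of B1506 went from 445.2 to 927.5 CPM and its neutrophil markers from 15390 to 9898 CPM. In B2506 the glucocorticoid-responsive genes went from 1799 to 2725 CPM and STAT5B from 708.5 to 647.7 CPM. In B1504 they went from 4813 to 2455, in B2501 from 5943 to 3170 and in B1002 from 2804 to 2707 CPM, with STAT5B higher in B1504 and B1002 and lower in B2501. T cell markers were higher in B1504 and B2501 and lower in B1002 and B2506. Neutrophil markers were lower in B1504 and B2501 and higher in B1002 and B2506. The 4 animals named first were picked out after their values were seen, and the part of these lists was not tested.

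**Figure D4:**
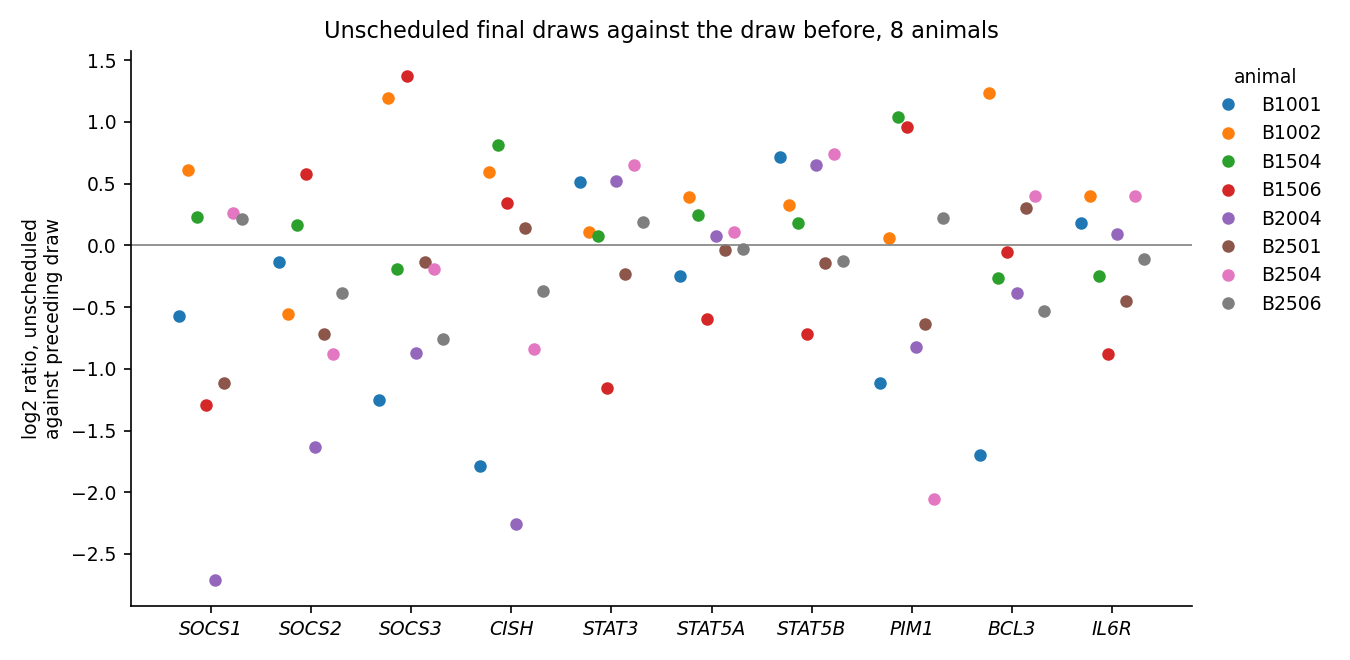
Log2 ratio of each member in the unscheduled draw over the draw before, with 0.5 CPM added to both levels, for 8 animals. Colours are animals and the grey line marks no change, and points lie on both sides of it for every member, from -2.71 (SOCS1 in B2004) to 1.37 (SOCS3 in B1506).

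PIM1 differed between animals more than between days. Of the variance of its log2 level over all samples 86.9% lay between animals, rank 18 of 13751 genes, against 12.2% to 29.3% for the other members and a median of 20.7% over all genes. In 6 animals (B1505, B2501, B2502, B2507, B1502 and B1004) the median over all draws was 19.9 to 55.1 CPM, and in the other 22 animals it was 1.52 to 3.58 CPM. The 6 animals belonged to both dose groups and were 5 females and 1 male. Animal B1505, the highest, ranged from 39.9 to 141.3 CPM over 16 draws, whereas B2505, the lowest, ranged from 0.699 to 2.38 CPM over 9. Of the 6 animals drawn on Day 270, 4 were among the 6 with high PIM1. The other high animals, B2501 and B2507, were last drawn on Day 77 and Day 120. The 6 were set apart by the widest gap between medians in these data, and a link with follow-up was not tested. Within animals PIM1 did not pass the test in the early, medium or late window (adjusted p of 0.29, 0.499 and 0.476 by edgeR).

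**Figure D5:**
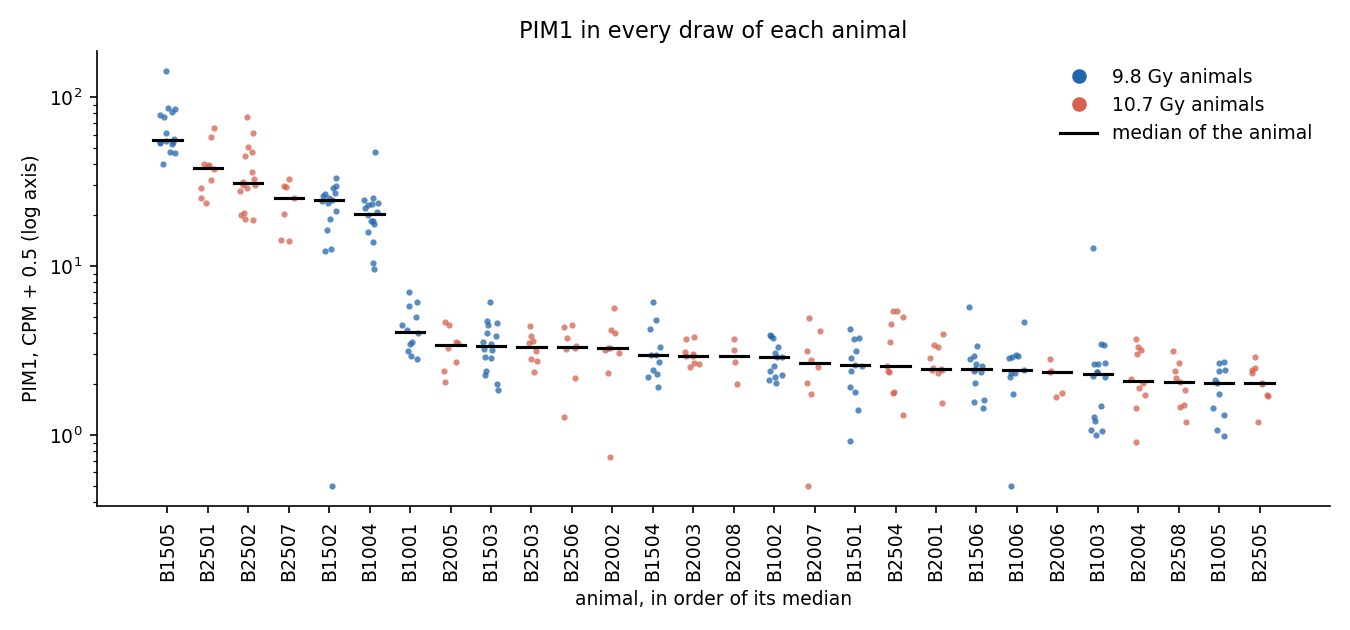
PIM1 level in every draw of each of 28 animals, in CPM with 0.5 added on a log axis, in order of the animal's median (black line) and coloured by dose group. Medians of 6 animals lie between 19.9 and 55.1 CPM and those of the other 22 between 1.52 and 3.58 CPM.

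A pair of draws went against their animal. In B1502 on Day 150 PIM1 had 0 counts in 2840219, which allows a level of up to 1.06 CPM (3 counts, counting error only), while its 15 other draws had 11.8 to 32.5 CPM. In B1003 on Day 90 PIM1 had 12.3 CPM, while its 15 other draws had 0.498 to 2.94 CPM. Without B1003 no call of a member on Day 90 changed.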

How the data were processed

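Whole-blood RNA had been collected in RNAprotect tubes, depleted of ribosomal RNA and sequenced as stranded total RNA. The authors trimmed reads with cutadapt 2.10, aligned them with STAR 2.7.6a and counted them with Subread 2.0.1 on Mmul_10. They deposited raw counts per gene and a table of log2 values after upper-quartile and conditional quantile normalization. The counting strand was not stated.

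Here the deposited counts were tested with edgeR 4.0.16 (R 4.3.3) by quasi-likelihood, with upper-quartile scaling, the animal as block and Benjamini-Hochberg adjustment over 13751 genes with at least 3 counts in 80% of samples. Windows used counts summed per animal. Dose tests on 1 day had sex as covariate. CPM values beside a test are scaled within that comparison, and others over all samples. The SE is that of the log2 change. Pairing by animal was checked by correlating each animal's control and early deviations over genes, which gave r from 0.351 to 0.761 in 24 animals. Depth, from 2840219 to 23638161 counts, sets the counting error. Alternatives were TMM scaling, DESeq2 1.42.0, no filter, a minimum of 10 counts, no block, matched library numbers, limma 3.58.1 on the deposited log2 values and leaving out each animal. Code was tested on simulated data. All members were named, with the 3 highest and 3 lowest called pathway genes per window and the 3 genes most like each member. CSF2RA, a listed gene, had no row under this symbol. Some withheld items are not reported here. The members and lists were chosen with earlier results of these data known. Promoter windows were read from the Mmul_10 reference and its RefSeq annotation.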

Additional observations from a re-analysis of the deposited data

Results flagged for a closer look

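In groups of 6 to 9 animals, 7 of 60 sets of log2 ratios (to the animal's own control or, for unscheduled draws, to the draw before) held a sample far from the others by Dixon's test, and chance flags about 1 in 20 such groups. On Day 270 animal B1503 had SOCS1 at 1.71, where the other 5 animals ranged from -0.50 to -0.05, and BCL3 at 2.32, where the others ranged from 0.46 to 0.91. On Day 270 animal B2502 had CISH at -0.305 (others 0.47 to 0.56) and PIM1 at 1.565 (others -0.19 to 0.45), and on Day 240 STAT5A at 0.90 (others -0.57 to -0.07). On Day 150 animal B1502, in the library with the fewest reads, had CISH at -2.33 (others -0.02 to 1.40), and animal B1506 had STAT3 at 2.02 (others -0.32 to 0.63).

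The change from control on Day 60 differed between the dose groups in 7 of 10 members, beside 23.1% of all genes, as higher dose minus lower dose on the log2 scale by an interaction test in 21 animals. The difference was 1.82 for SOCS3, 1.11 for BCL3, 1.09 for IL6R, 0.96 for PIM1, 0.96 for STAT5B, 0.93 for SOCS1 and 0.70 for STAT3. Without the animal as block, STAT3 and PIM1 lost the call (adjusted p of 0.0873 and 0.513 by edgeR). This test was chosen after the levels by dose had been seen.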

How the results depend on the processing

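Of 1970 values of single members under an alternative, 1896 kept their side of the call, 21 lost it, 53 gained it and none reversed, and 74 values that were not called changed sign. In the early window 1 member, in place of 2, was called with no filter on low counts, without the replicate block and with the deposited log2 values. In the medium window 0, in place of 1, were called with the deposited log2 values. The same held in the 4 animals with a shared range of library numbers, all of the higher dose group. Over single days 8 of 70 member and day pairs were called with shared library numbers, which could be fitted for Day 3 to 40, and the same 8 were called there with all animals, out of 29 of 150 over all days. On Day 3, 6, 9 and 15 all 24 paired animals share a range, so these fits repeat the main ones. Of them, 16 share one on Day 21 and 4 on Day 30 and on Day 40. By dose on Day 40, DESeq2 called 1 member in place of 0. Without the replicate block, which pairs samples of an animal, the number of members called was 1 in the medium window, 4 late, 6 late against Day 30 and 5 for the dose difference of the Day 60 change, with 34 pairs over single days. It was 0 for the unscheduled draws and for the dose and sex differences of the early change. Without the block IL6R lost its late call, PIM1 and CISH lost theirs on Day 210 and Day 240, and STAT3 and PIM1 lost theirs in the dose difference of Day 60. Leaving out 1 animal at a time called 4 to 6 members late and 0 in the unscheduled draws. A late comparison within a shared range of library numbers could not be fitted, since 1 animal had one. On Day 240 the genes called numbered 2189 by DESeq2 against 930, and on Day 270 2383 by DESeq2 and 670 with no filter against 1, while by dose on Day 21 DESeq2 called 52 against 21. The alternatives that leave out B1502, B1003 or B2004 were chosen after seeing the data. Depth limits PIM1 and SOCS2 most.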
